A study of Homo sapiens with 2 samples.

Results

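The genes examined here encode the protein folding machinery of the endoplasmic reticulum (ER) and the unfolded protein response that controls it. They comprised 36 genes chosen by symbol, out of 58174 genes listed in both libraries, and all 36 reached 1 TPM in at least 1 of them. RNA-seq was performed in PLC-8024, a human hepatocellular carcinoma (HCC) cell line. The control cells (PLC-8024-CTR) carried a control vector. The other cells (PLC-8024-GDF1) overexpressed human GDF1, a secreted ligand of the TGF-β superfamily, after stable lentiviral transduction and puromycin selection. Each condition had 1 library, so the spread between replicates is unknown and no p-value is given for any difference. Values are TPM, which divides the reads of a gene by its length and scales each library to the same sum, so levels can be set side by side between genes. TPM keeps no depth, and no counting interval is given for this reason. Changes are log2((TPM + 1)/(TPM + 1)), with PLC-8024-GDF1 as the numerator. "Rose" and "fell" are used only of genes that passed 2-fold on this scale, and "higher" and "lower" of any difference in value.

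The label was checked first. CERS1, whose annotated exons hold the GDF1 coding sequence, stood at 13.3 TPM in PLC-8024-CTR against 9612 TPM in PLC-8024-GDF1, while GDF1 itself was at 2.10 and 4.64 TPM. Across the 14929 genes that reached 1 TPM in either library, the median log2 change was -0.20, and across the 2674 that reached 50 TPM it was -0.03. All 12 hepatocyte and liver cancer markers passed 1 TPM in PLC-8024-CTR, and their summed level was 11850 TPM there and 9126 TPM in PLC-8024-GDF1. Of the 12, 9 were lower and 6 were past 2-fold downwards, beside 63.3% and 9.61% of all genes. ALB, the main plasma protein of hepatocytes, fell from 14.98 to 6.07 TPM (log2 change -1.18) and TTR from 7.17 to 0.34 TPM (-2.61). The 3 markers that were higher were TF (0.12), KRT8 (0.32) and KRT18 (0.28). None of 5 fibroblast markers passed 1 TPM (0.58 and 1.38 TPM in sum), and PTPRC, VWF, COL1A2 and DCN were listed at the placeholder for 0 in both libraries. Of 4 leukocyte markers (33.4 and 13.8 TPM in sum) CD68 passed 1 TPM, and of 3 endothelial markers (23.5 and 22.4 TPM) PECAM1 did. The part of these marker levels in the results was not tested. In a bulk library, fewer cells of a type and less RNA per cell cannot be told apart.

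Secreted and membrane proteins, of which hepatocytes make large amounts, fold in the ER with the help of chaperones, lectins that read their sugars and enzymes that form disulphide bonds. Proteins that fail to fold are drawn back into the cytosol and degraded, a process called ER-associated degradation. When unfolded proteins build up, the membrane sensors IRE1 (ERN1), PERK (EIF2AK3) and ATF6 signal to the nucleus. ATF6 and spliced XBP1 bind short promoter elements of folding and degradation genes. PERK phosphorylates eIF2α, which favours translation of ATF4, and ATF4 and its partners act on a separate set of genes, known as the integrated stress response because other eIF2α kinases feed into it.

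Promoter windows were read for these genes because both branches are known to act through such elements, and members that share an element can then be set side by side. The windows ran from 250 bases before to 50 bases after a RefSeq transcription start. They came from RefSeq promoters on GRCh38.p14, which covered 34 of the 36 genes and not PDIA3 or DERL1, and were placed on GRCh37, the build of the TPM tables, by an exact match. Each element was searched on both strands, and a gene counted where the window of any of its starts held it. CANX had 4 RefSeq starts, and PDIA6, XBP1, ATF3 and ASNS had 2 each. An element can thus belong to 1 start only, whereas TPM is for the whole gene. The ER stress response element (ERSE, CCAAT and CCACG separated by 9 bases) was found in 7 of the 34 members (20.6%) and in 25 of all 27305 genes with a window (0.0916%). A shorter form (ERSE-II, ATTGG and CCACG separated by 1 base) was found in 3 members (8.82%) and 0.0696% of all genes. ATTGG is CCAAT read on the other strand, so both forms join the same pair of parts, with the CCAAT part turned round and at another distance, and no member held both. These matches describe the letters in a window and do not show that a factor binds there. The ERSE is shown in capitals with 25 bases on either side, or 5 upstream bases in CANX and PDIA6, 5′ to 3′ on the strand of the gene and with GRCh37 positions, because its carriers include BiP, GRP94 and both lectin chaperones as well as XBP1 itself. HSP90B1 held it at 2 places.
HSPA5 (chr9:128003645-128003713, minus strand): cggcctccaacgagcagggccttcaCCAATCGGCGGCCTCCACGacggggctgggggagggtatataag
HSP90B1 (chr12:104323969-104324142, plus strand): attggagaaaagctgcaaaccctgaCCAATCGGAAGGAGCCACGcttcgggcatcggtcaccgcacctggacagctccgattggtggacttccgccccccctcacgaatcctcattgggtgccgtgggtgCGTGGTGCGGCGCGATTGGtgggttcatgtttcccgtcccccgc
CRELD2 (chr22:50312177-50312245, plus strand): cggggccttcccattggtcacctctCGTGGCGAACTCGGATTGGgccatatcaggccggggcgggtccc
CALR (chr19:13049173-13049241, plus strand): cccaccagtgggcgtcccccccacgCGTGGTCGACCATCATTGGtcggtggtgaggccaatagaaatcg
CANX (chr5:179125774-179125797, plus strand): cccggCCAATCTTCACACTCCACG
PDIA6 (chr2:10952979-10953002, minus strand): ccggaCCAATGAGCCGCAGCCACG
XBP1 (chr22:29196566-29196634, minus strand): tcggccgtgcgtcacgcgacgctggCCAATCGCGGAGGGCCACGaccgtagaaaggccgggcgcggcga
The ERSE-II is in capitals in the next stretches, at 2 places in HYOU1.
HYOU1 (chr11:118927960-118928126, minus strand): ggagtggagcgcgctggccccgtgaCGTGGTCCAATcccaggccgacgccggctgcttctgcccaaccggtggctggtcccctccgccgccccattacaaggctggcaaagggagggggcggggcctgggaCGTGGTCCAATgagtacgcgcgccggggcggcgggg
SDF2L1 (chr22:21996378-21996438, plus strand): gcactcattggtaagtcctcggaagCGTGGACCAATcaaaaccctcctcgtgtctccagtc
HERPUD1 (chr16:56965912-56965972, plus strand): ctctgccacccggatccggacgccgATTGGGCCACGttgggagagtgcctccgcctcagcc

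The 36 genes differed widely in level. P4HB, the most abundant, stood at 1834 TPM in PLC-8024-CTR against 2003 TPM in PLC-8024-GDF1, and CALR was the next in both libraries. EIF2AK3 was the lowest in both. The summed level of the 36 genes was 8862 TPM in PLC-8024-CTR against 9192 TPM in PLC-8024-GDF1, or 0.886% and 0.919% of all TPM. By rank among the 36, MANF went from 18 to 11, DERL2 from 28 to 20 and CRELD2 from 20 to 15, while XBP1 went from 16 to 23, TRIB3 from 17 to 22 and CEBPB from 8 to 13. The summed level was thus close in the 2 libraries, while the order of the genes beneath P4HB and CALR was not the same.

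DERL2 and MANF rose past 2-fold with GDF1, and SYVN1, XBP1, ERO1A and TRIB3 fell. The 2 of 36 that rose stand beside 4.82% of all genes that passed the filter, and the 4 of 36 that fell stand beside 9.61%. In all, 24 of the 36 were lower in PLC-8024-GDF1, beside 63.3% of all genes, and 8 of these 24 turned to higher after TPM were rescaled so that the median of all genes was 0. These counts lay near the background, so they say nothing particular to these genes. Among the 25 members with at least 50 TPM, 2 rose, 3 fell and 14 were lower, beside 4.08%, 7.29% and 52.7% of all genes at that level. At a fold of 1.5, chosen after the data were seen, 5 members rose and 9 fell, beside 11.5% and 25.3% of all genes. The median log2 change of the 36 was -0.15, or 0.05 above the median of all genes. After rescaling it was 0.06, and 3 members rose and 2 fell, beside 7.38% and 6.52% of all genes.

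**Figure D1:**
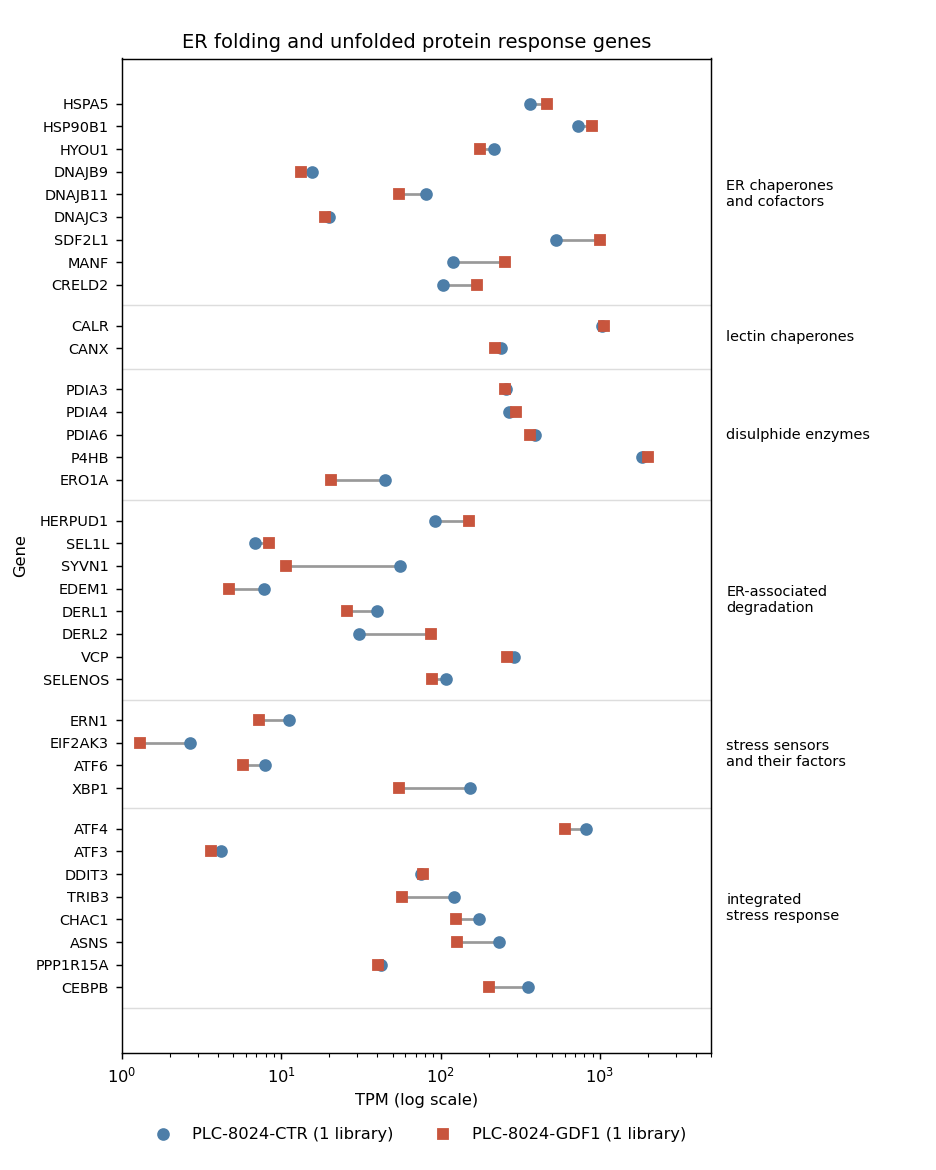
TPM of the 36 genes in the 1 library of PLC-8024-CTR cells (circles) and the 1 library of PLC-8024-GDF1 cells (squares), on a log axis, grouped by role. The longest lines are those of SYVN1, XBP1 and DERL2, and the stress sensors all lie further left in PLC-8024-GDF1.

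The genes were then ordered by role. The 9 ER chaperones and cofactors had the highest median log2 change (0.29, or 0.49 above all genes), and 5 of them were higher in PLC-8024-GDF1, joined by DNAJB9 and DNAJC3 after rescaling. The 4 stress sensors and their factors had the lowest (-0.62, or -0.42 relative to all genes), and all 4 were lower, before and after rescaling. The 8 integrated stress response genes had a median of -0.45, and 7 of them were lower, of which ATF3 and PPP1R15A turned to higher after rescaling. Of all genes, 63.3% were lower as deposited. Taken over the 3 folding roles (chaperones, lectins and disulphide enzymes), 12 of 16 genes lay above the median of all genes. Their summed level was 6234 TPM in PLC-8024-CTR against 7247 TPM in PLC-8024-GDF1. Over the 2 signalling roles, 3 of 12 lay above that median and the summed level was 1999 and 1307 TPM. Of all genes with at least 50 TPM, 1697 of 2674 lay above it. The median level in PLC-8024-CTR was 248.7 TPM in the folding roles and 98.6 TPM in the signalling roles. No test of the difference between roles can be made from 1 library per condition.

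HSPA5 (BiP), the HSP70 of the ER lumen and the chaperone that holds the sensors inactive, stood at 364.6 TPM in PLC-8024-CTR against 463.0 TPM in PLC-8024-GDF1 (log2 change 0.34). HSP90B1 (GRP94), the HSP90 of the ER, was listed at 723.5 and 886.9 TPM (0.29). Both lay above at least 78.2% of all genes in log2 change, and both were within 2-fold. Larger differences were seen in smaller cofactors. MANF (ENSG00000145050, chr3:51422722-51426828 of GRCh37), a secreted protein that binds BiP, rose from 120.6 to 252.7 TPM (1.06). SDF2L1, a component of BiP complexes, was listed at 530.1 and 994.5 TPM (0.91) and CRELD2, an ER-resident folding factor, at 103.2 and 169.6 TPM (0.71). SDF2L1 was under 2-fold as deposited and past it after rescaling, at a log2 change of 1.14.

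The 4 co-chaperones of BiP among the members had lower values in PLC-8024-GDF1. DNAJB11 (ERdj3) stood at 80.5 TPM in PLC-8024-CTR against 54.7 TPM in PLC-8024-GDF1 (log2 change -0.55), the lowest change among the chaperones. HYOU1 (GRP170), the nucleotide exchange factor of BiP, was listed at 215.3 and 177.2 TPM (-0.28). DNAJB9 (ERdj4), which directs BiP to IRE1, was listed at 15.6 and 13.3 TPM (-0.21), and DNAJC3 (p58IPK), an inhibitor of PERK, at 20.1 and 18.9 TPM (-0.08). All 4 were lower as deposited, but DNAJB9 (0.01) and DNAJC3 (0.14) turned to higher after rescaling. Co-chaperones outside the members went both ways as deposited, such as SIL1 (0.27) and DNAJC10 (-0.28). The plain TPM ratio of HSPA5 to DNAJB9 was 23.4 in PLC-8024-CTR and 34.8 in PLC-8024-GDF1.

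The lectin chaperones and the protein disulphide isomerases among the members were close in value in both libraries. CALR, the soluble lectin, stood at 1025 TPM in PLC-8024-CTR against 1063 TPM in PLC-8024-GDF1 (log2 change 0.05). CANX, its membrane-bound partner, was listed at 240.7 and 218.7 TPM (-0.14). PDIA3 (ERp57), which works with these lectins, was listed at 256.6 and 253.0 TPM (-0.02). P4HB (PDI), PDIA4 (ERp72) and PDIA6 (P5) form and rearrange disulphide bonds, and their log2 changes were 0.13, 0.15 and -0.12. PDIA4 was listed at 267.5 and 296.5 TPM and PDIA6 at 392.1 and 361.7 TPM. CANX, PDIA3 and PDIA6 turned to higher after rescaling. ERO1A (ENSG00000197930, chr14:53106633-53162618 of GRCh37), the oxidase that recharges PDI, stood apart from these enzymes and fell from 45.0 to 20.6 TPM (-1.09). The plain ratio of P4HB to ERO1A was 40.8 in PLC-8024-CTR and 97.2 in PLC-8024-GDF1. ERO1A was within 2-fold after rescaling (-0.86) and with the trend with GC content removed (-0.65).

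Genes of ER-associated degradation held both the largest rise and the largest fall among the 36. DERL2 (ENSG00000072849, chr17:5374574-5390131 of GRCh37), a membrane protein of the export channel, rose from 31.0 to 87.7 TPM (log2 change 1.47), and 1.78% of all genes had an equal or higher change. Its paralog DERL1 stood at 39.8 TPM in PLC-8024-CTR against 25.8 TPM in PLC-8024-GDF1 (-0.61). The order of the pair thus differed between the libraries, with 0.78 of DERL2 per DERL1 in PLC-8024-CTR and 3.40 in PLC-8024-GDF1. SYVN1 (HRD1, ENSG00000162298, chr11:64889252-64902003 of GRCh37), the ubiquitin ligase of the pathway, fell from 55.9 to 10.7 TPM (-2.28), and 0.83% of all genes had a lower change. SEL1L, the adaptor of SYVN1, was listed at 6.86 and 8.44 TPM (0.26), so the ratio of SYVN1 to SEL1L was 8.15 in PLC-8024-CTR and 1.27 in PLC-8024-GDF1. SYVN1 overlaps FAU, a ribosomal protein fusion gene, on the same strand. FAU was listed at 464.8 and 494.0 TPM, and with both genes added up the log2 change was -0.04. FAU makes up most of that sum, which therefore cannot show whether SYVN1 itself differed. Reads of these overlapping genes could be assigned to either, so the fall of SYVN1 by itself is uncertain.

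HERPUD1, which recruits substrates to the SYVN1 complex, stood at 92.3 TPM in PLC-8024-CTR against 151.9 TPM in PLC-8024-GDF1 (log2 change 0.71), close to the change of CRELD2. EDEM1, a lectin-like protein that trims mannose from misfolded glycoproteins, was listed at 7.86 and 4.69 TPM (-0.64). SELENOS, a selenoprotein that ties the channel to VCP, was listed at 107.9 and 88.3 TPM (-0.29). VCP (p97), the ATPase that pulls proteins out of the membrane, was listed at 287.0 and 261.1 TPM (-0.14) and turned to higher after rescaling. HERPUD1, DERL2 and SEL1L were the 3 of 8 that were higher as deposited. The VCP window held the unfolded protein response element (UPRE, TGACGTGG, in capitals), which was found in 5.88% of the members, VCP and HYOU1, and in 0.927% of all genes. In HYOU1 it overlaps the first ERSE-II printed above.
VCP (chr9:35072779-35072836, minus strand): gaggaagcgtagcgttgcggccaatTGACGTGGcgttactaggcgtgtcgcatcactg

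All 3 sensors were low in level and lower still in PLC-8024-GDF1. ERN1 (IRE1), the kinase and RNase that splices XBP1 mRNA, stood at 11.2 TPM in PLC-8024-CTR against 7.31 TPM in PLC-8024-GDF1 (log2 change -0.55). EIF2AK3 (PERK) was at 2.69 and 1.30 TPM (-0.69), and passed 2-fold by the plain TPM ratio (-1.06). ATF6, a membrane-bound factor released by cleavage, was listed at 7.95 and 5.75 TPM (-0.41, or -0.02 with the GC trend removed). XBP1 (ENSG00000100219, chr22:29190543-29196585 of GRCh37), the transcription factor made from the mRNA that IRE1 splices, fell from 152.1 to 55.1 TPM (-1.45), and 3.58% of all genes had a lower change. It passed 2-fold under all 8 alternatives, at log2 changes from -1.46 to -1.07, though some of these settings cannot alter its value. Its TPM is for the whole gene and does not separate spliced from unspliced mRNA. HSPA5 mRNA was 2.40 times that of XBP1 in PLC-8024-CTR and 8.40 times in PLC-8024-GDF1.

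Of the 8 integrated stress response genes, 7 had a lower value in PLC-8024-GDF1. ATF4, the transcription factor at its centre, stood at 821.9 TPM in PLC-8024-CTR against 604.9 TPM in PLC-8024-GDF1 (log2 change -0.44). TRIB3 (ENSG00000101255, chr20:343479-378203 of GRCh37), a pseudokinase induced by ATF4 and CHOP, fell from 121.2 to 57.6 TPM (-1.06), and was within 2-fold after rescaling (-0.83). ASNS, asparagine synthetase, was listed at 231.4 and 127.2 TPM (-0.86). CEBPB, a bZIP partner of ATF4, was listed at 354.6 and 200.9 TPM (-0.82) and CHAC1, a glutathione-degrading enzyme, at 173.9 and 125.4 TPM (-0.47). CEBPB passed 2-fold with the GC trend removed (-1.03). The genes of this group that differed least were DDIT3 (CHOP), a pro-apoptotic factor, at 75.9 and 77.4 TPM (0.03), PPP1R15A (GADD34), which recruits a phosphatase to eIF2α, at 42.2 and 40.6 TPM (-0.06), and ATF3, a bZIP repressor, at 4.18 and 3.62 TPM (-0.16). ATF3 and PPP1R15A turned to higher after rescaling. DDIT3 per ATF4 mRNA was 0.0924 in PLC-8024-CTR and 0.128 in PLC-8024-GDF1. DDIT3 was the only one of these 8 that was higher as deposited.

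ATF4 dimers are known to bind the C/EBP-ATF response element (CARE, TGATG and AA separated by 1 base). It was found in 4 members (11.8%) and in 4.46% of all genes, and the cAMP response element (CRE, TGACGTCA) in PPP1R15A alone (2.94%, beside 2.25%). The windows are shown with these elements in capitals because they come from the branch that was mostly lower, apart from HERPUD1.
ASNS (chr7:97501756-97501813, minus strand): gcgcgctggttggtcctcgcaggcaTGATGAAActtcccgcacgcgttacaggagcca
CHAC1 (chr15:41245435-41245492, plus strand): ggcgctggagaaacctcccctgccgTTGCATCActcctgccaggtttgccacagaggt
ATF3 (chr1:212738533-212738590, plus strand): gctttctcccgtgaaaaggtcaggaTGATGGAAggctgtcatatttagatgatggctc
HERPUD1 (chr16:56965853-56965910, plus strand): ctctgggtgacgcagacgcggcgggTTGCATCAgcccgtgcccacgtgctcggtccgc
PPP1R15A (chr19:49375595-49375652, plus strand): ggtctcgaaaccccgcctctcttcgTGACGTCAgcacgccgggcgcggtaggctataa

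Set side by side by element, a grouping made after the values were seen, the 10 genes with an ERSE or ERSE-II had log2 changes from -1.45 (XBP1) to 0.91 (SDF2L1), with a median of 0.17, and 6 of them were higher, joined by CANX and PDIA6 after rescaling. The 24 genes with a window and neither element ranged from -2.28 (SYVN1) to 1.47 (DERL2), with a median of -0.35, and 6 of them were higher, joined by DNAJB9, DNAJC3, VCP, ATF3 and PPP1R15A after rescaling. The ranges overlap throughout. In the other direction, 4 of the 10 and 18 of the 24 were lower as deposited. These stand beside 63.3% of all genes, and 52.7% of those with at least 50 TPM. Rescaling raises the value of every gene by construction, in these sets and in the background. The 24 include all the integrated stress response genes and ERN1, EIF2AK3 and ATF6. They also include folding and degradation genes, among them MANF, P4HB, DERL2 and VCP. The 10 are folding or degradation genes apart from XBP1. Element and role thus overlap in part here, and their shares in these values were not tested. SDF2L1 and HERPUD1, with the ERSE-II, were higher, whereas HYOU1, which held it at 2 places, was lower. XBP1, which holds an ERSE itself, was the lowest of the 10. The 4 genes with a CARE ranged from -0.86 (ASNS) to 0.71 (HERPUD1), which also holds an ERSE-II. MANF and DERL2, which rose most, held none of the 5 elements in their windows.

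Other genes of the ER were examined as lists set by function. Their counts are to be read beside all genes, of which 4.82% rose, 9.61% fell and 63.3% were lower. Of 34 further ER folding genes, 18 were higher and 16 lower as deposited, and the median log2 change was 0.01, or 0.24 after rescaling. PPIB, an ER peptidyl-prolyl isomerase and the most abundant of them, stood at 4579 TPM in PLC-8024-CTR against 6496 TPM in PLC-8024-GDF1 (0.50). The isomerase FKBP9 rose (1.05) and TXNDC11, a thioredoxin-domain protein, fell from 66.8 to 8.74 TPM (-2.80). Of 27 further genes of ER-associated degradation, DERL3, the paralog of DERL1 and DERL2, rose from 2.35 to 5.77 TPM (1.02) and 5 fell. UBE2G2, a ubiquitin-conjugating enzyme, fell most, from 31.2 to 3.54 TPM (-2.83), followed by FAM8A1 (-1.33), ERLEC1 (-1.19) and RNF103 (-1.15). The list median was -0.17, or 0.06 after rescaling, and TMUB1, the most abundant, was listed at 355.2 and 549.4 TPM (0.63). Of 24 genes of the translocon and of signal peptide cleavage, 17 were lower as deposited, beside 63.3% of all genes. Their median was -0.23, or 0.01 after rescaling. SSR4, a subunit of the translocon-associated complex and the most abundant of that list, rose from 1120 to 2362 TPM (1.08), and SRP54 of the signal recognition particle fell (-1.07).

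The signalling side was extended in the same way. Of 23 further stress signalling genes past 1 TPM, 1 rose, 3 fell and 16 were lower as deposited, beside 4.82%, 9.61% and 63.3% of all genes. The median log2 change was -0.34, which turned to 0.10 with the GC trend removed. WFS1, an ER membrane protein, rose from 9.47 to 32.2 TPM (1.67). TMBIM6 (BAX inhibitor 1), an ER protein that restrains IRE1 and the most abundant of them in PLC-8024-CTR, fell from 312.2 to 67.6 TPM (-2.19). NFYA, a subunit of the factor that binds CCAAT, fell from 8.26 to 1.35 TPM (-1.98). PPP1R15B, the constitutive counterpart of PPP1R15A, fell from 6.49 to 2.55 TPM (-1.07). CREB3, an ER-anchored bZIP factor and the most abundant of them in PLC-8024-GDF1, was listed at 153.8 and 233.6 TPM (0.60). Of 23 further ATF4 targets past 1 TPM, 19 were lower, beside 63.3% of all genes. Their median was -0.45 (-0.22 after rescaling), beside -0.45 in the 8 members of that branch. NUPR1, a stress-induced chromatin protein, rose from 239.4 to 529.4 TPM (1.14). Of the 7 that fell, CTH (-1.62), MTHFD2 (-1.42), GPT2 (-1.24) and PCK2 (-1.10) fell most. All 4 are enzymes of amino acid or one-carbon metabolism or of mitochondrial phosphoenolpyruvate synthesis. GDF15, a secreted stress cytokine and the most abundant target, fell from 4696 to 2294 TPM (-1.03). Several of these falls were within 2-fold after rescaling, namely ERLEC1 (-0.97), RNF103 (-0.97), SRP54 (-0.85), PPP1R15B (-0.90), PCK2 (-0.87) and GDF15 (-0.80), and FAM8A1 with the GC trend removed (-0.94).

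Chaperones of other compartments gave a comparison outside the ER. Of 31 cytosolic chaperones, 27 were lower, beside 63.3% of all genes, and the median log2 change was -0.54 (-0.35 after rescaling). HSPB1, a small heat shock protein, rose from 1148 to 2743 TPM (1.26). HSPH1 (-1.62), CCT5 (-1.12) and ST13 (-1.01) fell, the last 2 of which were within 2-fold after rescaling (-0.88 and -0.78). Of 12 mitochondrial chaperones and proteases, 10 were lower, beside the same share of all genes, and the median was -0.60 (-0.37 after rescaling). HSPD1 (HSP60), the most abundant in PLC-8024-CTR, fell from 282.6 to 113.5 TPM (-1.31, or -0.88 with the GC trend removed). DNAJA3 fell too (-1.27), but was within 2-fold when genes that overlap it on the same strand were added (-0.98). LONP1, a protease and the most abundant in PLC-8024-GDF1, was listed at 269.9 and 203.0 TPM (-0.41). These medians stand beside 0.29 (0.53 after rescaling) for the 9 ER chaperones and cofactors, the highest of the 6 roles. The 16 genes of the folding roles together had a median of 0.02 (0.25 after rescaling), and the 34 further ER folding genes 0.01 (0.24). With the control library first, the summed level was 6652 and 6675 TPM for the cytosolic list, and 1444 and 882 TPM for the mitochondrial list.

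**Figure D2:**
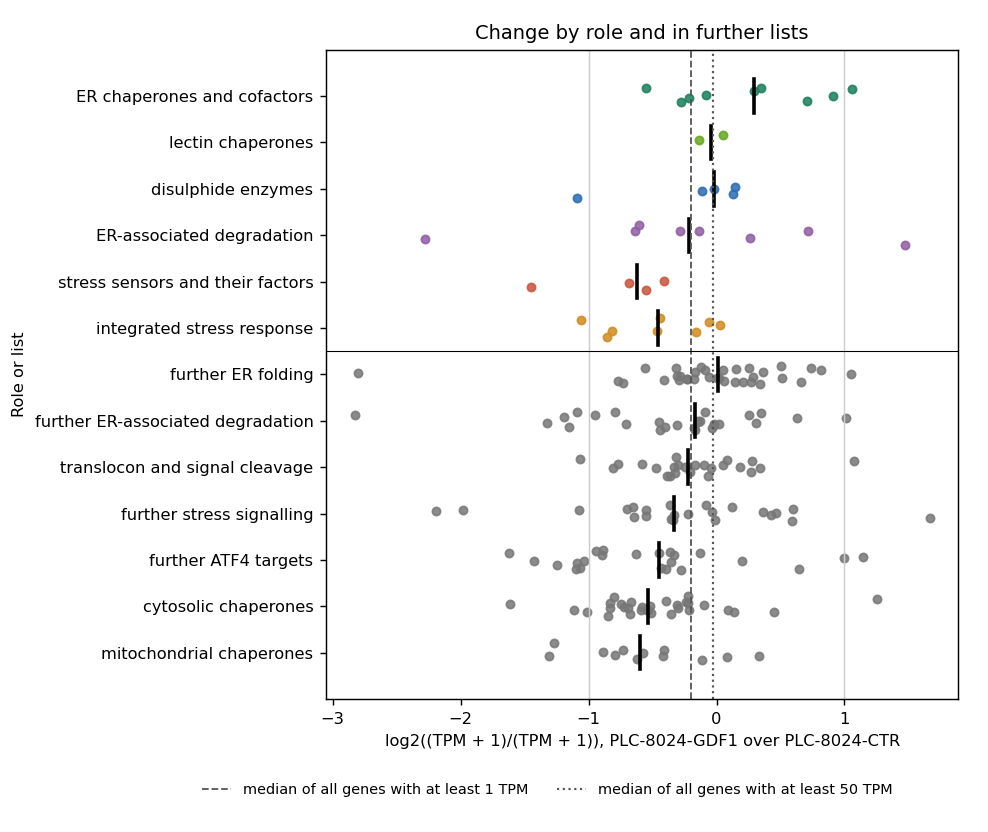
Log2 change of each gene (points, spread vertically at random to separate them) by role for the 36 genes and for 7 further lists (grey), with the median of each as a black bar. The dashed and dotted lines mark the medians of all genes with at least 1 TPM (-0.20) and at least 50 TPM (-0.03), and the grey lines mark 2-fold; as deposited, the ER chaperones have the highest median (0.29) and the stress sensors the lowest (-0.62).

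The log2 change varied with base composition over all genes. Across the 14640 genes with a GC value, Spearman's rho of the log2 change with the GC content of the longest transcript was 0.294, and with transcript length it was -0.235. Across the 36 members these were 0.028 and -0.040. By role, the median GC content was 42.0% and the median transcript length 6097 bases in the stress sensors, against 57.2% and 2061 bases in the integrated stress response genes. All genes come from the same pair of libraries, so they are not independent replicates. XBP1 (41.5% GC) and DERL2 (39.1%) lie at similar GC content with changes of opposite sign, as do SDF2L1 (65.1%) and CEBPB (66.2%). With the GC trend removed, the medians were 0.67 for the ER chaperones, -0.35 for the stress sensors and -0.44 for the integrated stress response genes. DNAJB9, DNAJC3, CANX, PDIA3, PDIA6, VCP and ATF3 changed sign under this correction, and the largest of them was DNAJC3 at 0.33.

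The calls were followed over the 8 alternatives. MANF and DERL2 passed 2-fold under all 8, at log2 changes from 1.06 to 1.30 and from 1.47 to 1.89, and so did XBP1. SYVN1 and TRIB3 passed under 7 and ERO1A under 6. The minimum of 5 TPM, no minimum and protein-coding genes only act on the background and leave each of these values as it was. Adding overlaps alters only genes with a same-strand overlap, which among these is SYVN1. Passing under such settings was thus fixed in advance. SYVN1 failed only with FAU added, a sum made up mostly of FAU. DERL2 overlaps MIS12 on the opposite strand, which was listed at 5.73 and 0.63 TPM. CRELD2 overlaps ALG12 (20.6 and 11.4 TPM) and DDIT3 overlaps MARS (177.9 and 129.0 TPM) in the same way. The use of strand in the quantification is not given in the sources used here, so reads from such pairs cannot be told apart. DNAJB11 overlaps AC068631.2 on the same strand, and its log2 change was -0.63 with the overlapping gene added.

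**Figure D3:**
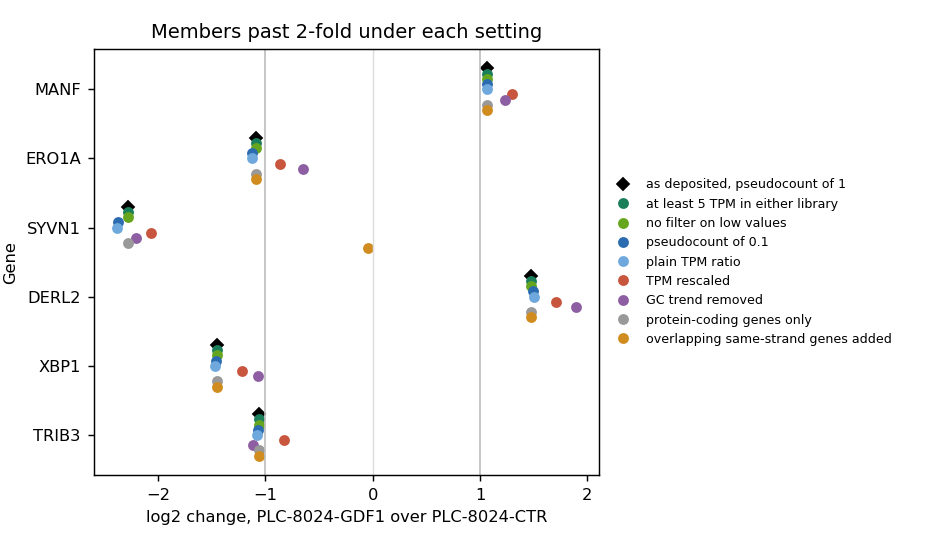
Log2 change of the 6 members past 2-fold (rows) under the values as deposited (diamond) and the 8 alternatives (circles), with grey lines at 2-fold. MANF, DERL2 and XBP1 stay outside the lines throughout, SYVN1 lies at -0.04 with FAU added, and ERO1A and TRIB3 move inside them after rescaling.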

How the data were processed

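The authors aligned the reads of 1 PLC-8024-CTR and 1 PLC-8024-GDF1 library to hg19 with HISAT2 2.1.0 and quantified genes with StringTie 1.3.3b, per the submitters' processing notes, which also name FastQC 0.11.2, Trimmomatic 0.36 and bedtools 2.26.0. The deposited values are TPM per gene, headed as a mean although each condition has 1 library, with 0.0001 in place of 0. TPM summed to 999990 and 999995, so they hold no sequencing depth. The methods name RefSeq, whereas the tables list Ensembl identifiers.

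From these tables, log2 changes were computed with a pseudocount of 1 over genes that reached 1 TPM in either library, and a gene counted as changed past a fold of 2. No test was made. The 36 members, their roles, the 7 further lists and the markers were chosen with earlier results of these data known. Genes named were all 36 members, GDF1 and CERS1, genes that overlap a member, and, of each further list, the most abundant gene and up to 4 genes in each direction that passed 2-fold and reached 5 TPM in either library. Those overlapping a member on the opposite strand, the markers named, SIL1, DNAJC10, the fold of 1.5 and the grouping by promoter element were chosen after values were seen. MARCHF6 was matched by identifier, because its symbol had become a date.

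Gene positions, overlaps and GC content came from GENCODE 44 on GRCh37, which held 55726 of the 58174 identifiers. The GC trend was a lowess fit with a span of 0.3. Rescaling multiplied PLC-8024-GDF1 TPM by 1.178. The alternatives were a minimum of 5 TPM, no minimum, a pseudocount of 0.1, a plain TPM ratio, rescaling, the GC trend removed, protein-coding genes only, overlapping same-strand genes added up, and, for the background, genes with at least 50 TPM. The tools were statsmodels 0.14.6, scipy 1.17.1, pandas 2.3.3, numpy 2.4.6 and matplotlib 3.10.9 under Python 3.11.15, and the calculations were tested on simulated data.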

Additional observations from a re-analysis of the deposited data

How the results depend on the processing

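No paired analysis was possible because a condition comprised 1 library only. Without replicates or read counts, neither biological nor counting error is known, and the values describe these libraries alone. No result changed sign past 2-fold. After rescaling, 3 members rose and 2 fell, and at a fold of 1.5, chosen after the data were seen, 14 changed, 5 upwards and 9 downwards. Median log2 changes that crossed 0 were, after rescaling and with the GC trend removed, those of all members (0.062 and 0.097), ER-associated degradation (0.024 and 0.022), disulphide enzymes (0.216 and 0.199), lectin chaperones (0.193 and 0.217) and the translocon list (0.006 and 0.156), with further ER-associated degradation (0.059) after rescaling only and further stress signalling (0.096) with the GC trend removed only. Rescaling raises every value by construction, and the cause of the other shifts was not tested. The share of all genes that fell was 6.05% with the GC trend removed, 2.47% without a filter, 16.07% by the plain ratio and 15.51% with a pseudocount of 0.1. The share that rose was 7.38% after rescaling, and 1.24%, 7.88% and 7.82% under the last 3 settings. Without a filter, 26.79% of all genes were lower, because unexpressed genes enter the total.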
